A study of Mus musculus with 8 samples.

Results

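The Rab GTPases of mouse RAW264.7 cells are described here from RNA sequencing, with members chosen by symbol: Rab, 1 or 2 digits and at most 1 further lower-case letter. The rule found 41 genes among the 10639 of the table, and used no measured value. RAW264.7 is a macrophage-like line made by transformation with Abelson leukaemia virus, so that all 8 libraries come from 1 cell line of genotype WT. The groups, of 2 libraries each, were cells given both lipopolysaccharide (LPS) and anti-CD36 antibodies for 12 h (the combination), cells given LPS at 50 ng/mL for 12 h, cells given anti-CD36 antibodies at a dilution of 1 in 100 for 12 h, and untreated cells. The labels of the combination give no doses. LPS is a bacterial cell wall component sensed through TLR4, and CD36 is a surface receptor that takes up fatty acids and oxidized lipoproteins. No library of cells given a control antibody was analysed here.

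Rab proteins are small GTPases that mark the membranes of the secretory and endocytic pathways. In the GTP-bound form they recruit tethers, motors and fusion factors, so each compartment is known by the Rabs it carries. Exchange factors (GEFs) load GTP, GTPase-activating proteins (GAPs) switch the Rab off, and escort proteins and GDP dissociation inhibitors carry the prenylated protein between membranes. In macrophages they are known for steering phagosome and macropinosome maturation, cytokine secretion and the transport of TLR4 between the cell surface, endosomes and lysosomes.

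By compartment, 11 members were placed at the ER and Golgi, 7 at the early endosome and uptake, 6 at the recycling endosome, 7 at the late endosome, lysosome and lysosome-related organelles, 7 in exocytosis and secretory granules, and 3 in a group of ciliary or unassigned members. Another 20 Rab symbols of these compartments, such as Rab38, Rab27b and Rab17, were not analysed here. Levels are in FPKM, fragments per kilobase of transcript and scaled to the reads of a library, so genes can be compared per length. A difference is on the log2(FPKM + 1) scale, which understates changes of low genes, and comes from limma with 4 group means fitted to all 8 libraries. Calls were made at an adjusted p (Benjamini-Hochberg) under 0.05 over the 10289 genes that reached 1 FPKM in 2 or more libraries. Of the members, 38 passed this filter, while Rab43, Rab2b and Rab39 did not and were not tested. Errors of differences are SE.

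Recovered depth was 47900000 to 71700000 reads a library, so that 3 reads on a transcript of 2000 bp amount to 0.0209 to 0.0313 FPKM, for counting error only. Of 10 macrophage markers, 9 were in the table, with Lyz2 at 1440 to 3750 FPKM and Csf1r at 73.8 to 311 FPKM, and Mertk was not analysed here. Lower ones were Adgre1 at 8.26 to 84.1 FPKM, Fcgr1 at 17.4 to 29.5 FPKM, Itgam at 7.83 to 18.8 FPKM and Ptprc at 7.32 to 15.8 FPKM. Lck was present out of 5 T and NK cell markers, Csf3r out of 5 granulocyte markers, Cd79b and Ighm out of 5 B cell markers, and Zbtb46 and Fscn1 out of 4 dendritic cell markers. Ighm was high, at 67.8 to 110 FPKM, while Cd79b was at 0.0292 to 1.46 FPKM. The source of the Ighm signal was not tested. Summed dendritic markers were at 3.62 to 3.69 FPKM in the combination, 2.12 to 2.41 FPKM in LPS cells, 0.452 to 0.461 FPKM in anti-CD36 cells and 0.402 to 0.476 FPKM in untreated cells. Lck was at 4.15, 4.21 to 4.32, 1.72 to 1.87 and 1.89 to 2.00 FPKM in the same groups, and the part of either in the LPS differences was not tested. Of the fibroblast, epithelial and endothelial markers, 0 were in the table. Anti-CD36 replicate 1 stood apart: mitochondrial genes held 15.8% of its summed FPKM, against 3.28% to 6.62% in the other 7 libraries. The replicate difference of log2 values over all 41 Rab members had an SD of 0.383 in anti-CD36 cells, against 0.181 in the combination, 0.124 in LPS cells and 0.168 in untreated cells. Nothing in the labels says that replicates were separate cultures, and p-values therefore cover no more than the spread among these libraries, possibly a technical one. In bulk RNA, fewer cells of a kind and less RNA per cell cannot be told apart.

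The promoters below belong to the member that rose most with LPS, Rab20, and to 2 pairs of close relatives whose members moved in opposite directions with LPS, Rab11a with Rab11b and Rab8a with Rab8b. Rab8a and Rab8b were chosen after their values were seen. Each sequence is from RefSeq on GRCm38.p6, the assembly of mm10, and runs 5′ to 3′ from 250 bases before the gene start to 50 after it. Capitals mark a CACGTG motif in Rab20 and a TTCNNNGAA motif followed by a kappa B motif in Rab11a. The windows are chr8:11478591-11478890 (minus strand) for Rab20, chr9:64737707-64738006 (minus) for Rab11a, chr17:33760437-33760736 (minus) for Rab11b, chr8:72160950-72161249 (plus) for Rab8a and chr9:66919656-66919955 (minus) for Rab8b.
Rab20: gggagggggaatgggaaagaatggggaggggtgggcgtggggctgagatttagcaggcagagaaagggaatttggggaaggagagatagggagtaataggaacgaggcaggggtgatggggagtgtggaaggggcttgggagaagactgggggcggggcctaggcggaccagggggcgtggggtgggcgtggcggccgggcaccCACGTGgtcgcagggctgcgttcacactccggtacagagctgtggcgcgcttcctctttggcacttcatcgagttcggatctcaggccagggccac
Rab11a: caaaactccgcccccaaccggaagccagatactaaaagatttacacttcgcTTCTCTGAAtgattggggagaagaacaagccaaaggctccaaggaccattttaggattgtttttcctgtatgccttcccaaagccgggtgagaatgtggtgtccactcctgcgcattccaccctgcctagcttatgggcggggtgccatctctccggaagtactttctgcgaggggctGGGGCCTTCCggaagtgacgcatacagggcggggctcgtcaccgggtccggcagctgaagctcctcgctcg
Rab11b: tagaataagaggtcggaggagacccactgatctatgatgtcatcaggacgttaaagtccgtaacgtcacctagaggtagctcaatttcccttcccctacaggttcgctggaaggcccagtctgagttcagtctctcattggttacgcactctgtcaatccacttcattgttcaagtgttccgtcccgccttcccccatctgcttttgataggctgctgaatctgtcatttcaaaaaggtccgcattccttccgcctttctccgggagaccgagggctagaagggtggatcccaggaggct
Rab8a: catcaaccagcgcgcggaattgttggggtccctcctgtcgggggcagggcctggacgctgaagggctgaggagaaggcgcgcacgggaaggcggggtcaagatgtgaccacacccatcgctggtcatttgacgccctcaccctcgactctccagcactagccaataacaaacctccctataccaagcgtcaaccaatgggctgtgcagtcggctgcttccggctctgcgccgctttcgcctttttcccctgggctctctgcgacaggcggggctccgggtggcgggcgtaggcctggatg
Rab8b: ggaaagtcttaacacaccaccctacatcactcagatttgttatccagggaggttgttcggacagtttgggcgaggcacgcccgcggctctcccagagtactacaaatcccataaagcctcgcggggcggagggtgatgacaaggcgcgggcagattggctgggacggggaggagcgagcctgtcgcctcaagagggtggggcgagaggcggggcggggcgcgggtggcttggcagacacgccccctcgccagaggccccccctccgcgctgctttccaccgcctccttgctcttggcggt
Both strands were searched for kappa B (the site of NF-kappaB dimers), TGANTCA (AP-1), TTCNNNGAA (STAT dimers) and CACGTG (E-box factors). Rab20 spans chr8:11453518-11478710 and Rab8a chr8:72161200-72183904, Rab11a chr9:64715299-64737758 and Rab8b chr9:66843664-66919687, and Rab11b chr17:33742484-33760530 in GENCODE M21, all protein-coding. Motif positions are from the RefSeq start, which can differ from the GENCODE one. In Rab20 the CACGTG began 46 bases before the RefSeq start, which lies inside the GENCODE span. In Rab11a the kappa B motif began 21 bases and the TTCNNNGAA 199 bases before it, and they did not overlap. The letters of these motifs were not in the windows of Rab11b, Rab8a and Rab8b. Over 49 windows of the 37 members that matched RefSeq, 3 held kappa B, 2 TGANTCA, 4 TTCNNNGAA and 6 CACGTG, that is 6.12%, 4.08%, 8.16% and 12.24%. Of all 32851 promoter windows of this length, 8.46%, 7.81%, 8.30% and 7.15% held them. Motifs were also held by members that fell with LPS: Rab15 (kappa B, TGANTCA and TTCNNNGAA), Rab19 (TTCNNNGAA), Rab23 and Rab27a (CACGTG each). The other holders, Rab28, Rab34, Rab21, Rab24 and Rab5a, were not called with LPS in the main fit, though Rab28 and Rab5a rose under another scaling. Rab18, Rab2a, Rab4a and Rab7b had no window. A match is a description of letters and not a site of binding.

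The members differed widely in level. The early endosome member Rab5c was the most abundant, at a mean of 137.1 FPKM over the 8 libraries. Rab7, the late endosome Rab, followed at 97.0 FPKM. The ER and Golgi members Rab1b, Rab2a and Rab1a had means of 82.5, 62.7 and 60.8 FPKM, and 6 members in all were above 50 FPKM. At the other end, 4 members were below 1 FPKM, which were Rab15 and the 3 untested ones. Rab43, Rab2b and Rab39 ranged from 0.110 to 0.897 FPKM over the libraries. Exons of some members overlap those of other genes, which matters because strand use was not given in the sources used here: Rab43 shares 75.4% of its exon bases with Gm45140, Rab24 62.4% with Prelid1, Rab2b 59.3% with Gm43766, Rab20 25.6% with the noncoding E230013L22Rik, and Rab6a 19.0% with Mrpl48. Values of these members are uncertain to that extent. Summed over all 41 members, the level was 830.3 and 872.1 FPKM in the combination, 832.9 and 842.8 FPKM in LPS cells, 929.8 and 933.8 FPKM in anti-CD36 cells, and 955.1 and 959.3 FPKM in untreated cells. The libraries with LPS thus lay below those without it. As a share of all FPKM, the members held 0.235% and 0.254% in the combination, 0.2502% and 0.260% in LPS cells, 0.290% and 0.282% in anti-CD36 cells, and 0.325% and 0.342% in untreated cells.

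LPS was first set against untreated cells. Of the 38 tested members, 5 rose and 16 fell, or 21 called, where 54.6% of all genes tested were called, 17.0% higher and 37.5% lower. The members' count is therefore near that of all genes. Their median log2 difference was -0.21, beside -0.19 for all genes. The rises were Rab20, Rab18, Rab8b, Rab11a and Rab2a, and on the log2(FPKM + 1) scale Rab7b, Rab35, Rab3d and Rab32 had the largest falls. By ratio of mean FPKM the order was Rab7b at 0.322, Rab15 at 0.360, Rab19 at 0.400 and Rab32 at 0.415. Both LPS libraries lay above both untreated ones for 10 members and below for 23, where 30.6% of all genes lay above and 54.5% below. With median-ratio size factors, which brought the median of all genes to 0.00, 8 members were higher and 14 lower, and of all genes 2655 were higher and 2726 lower. Rab5a, Rab28 and Rab1a then joined the rises, and Rab14 and Rab1b were no longer called. Rab13, Rab21, Rab29, Rab33b, Rab5b, Rab5c and Rab6a, all uncalled on both scales, changed sign. Without LPS replicate 1, Rab20 was the only rise called. Rab20 was also the only rise called without LPS replicate 2 or untreated replicate 1, and without untreated replicate 2 it was Rab20 and Rab8b, so the rises of Rab18, Rab11a and Rab2a were lost without any 1 of these 4 libraries.

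**Figure D1:**
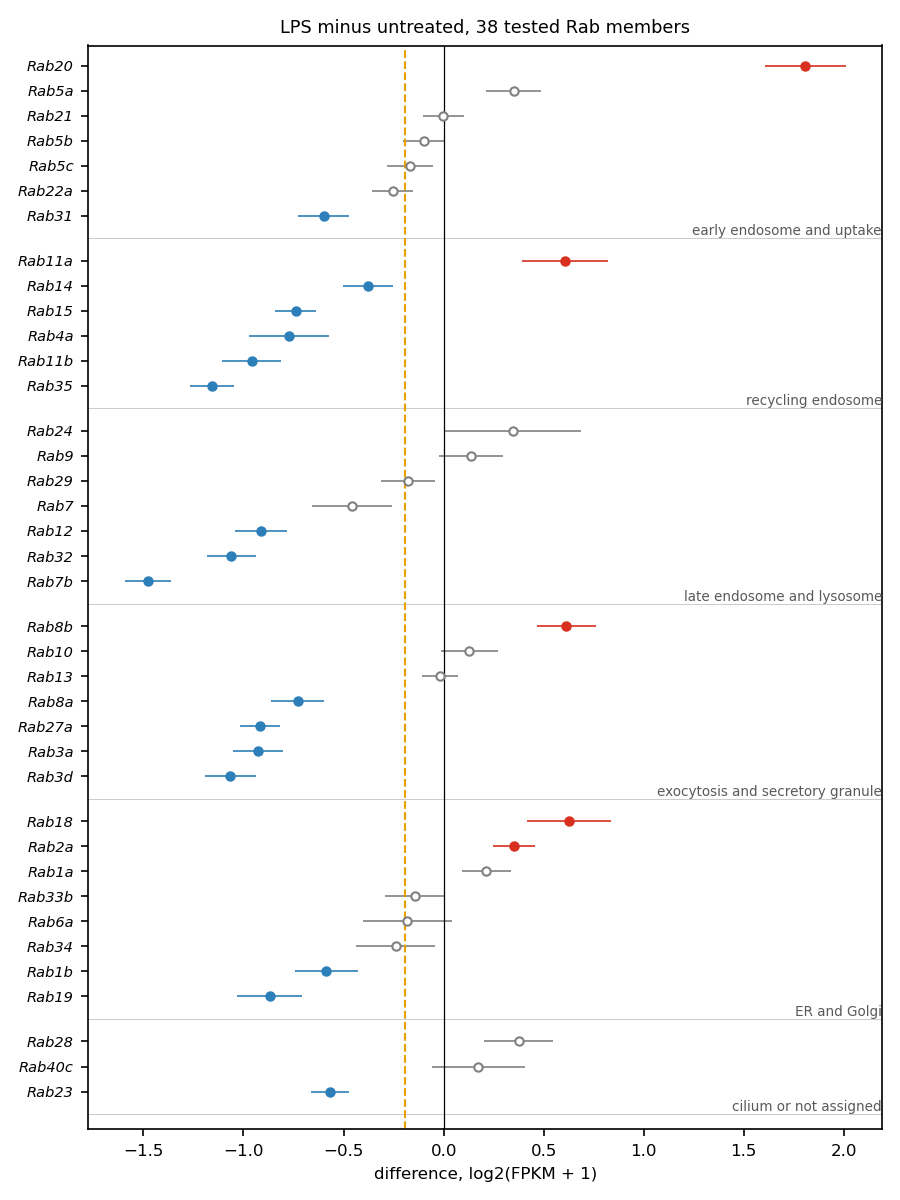
Log2 difference, LPS minus untreated, of the 38 tested Rab members by compartment, with SE as bars (2 libraries per group). Filled red points were called higher, filled blue points lower and open points were not called. The dashed line is the median of all genes tested, -0.19, and Rab20 lies at 1.81 and Rab7b at -1.48.

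Among the early endosome and uptake members, 1 of 7 rose and 1 fell. The shares of all genes, 17.0% higher and 37.5% lower, hold beside this and each compartment count below. Rab20, which acts in phagosome and macropinosome maturation, had 20.6 and 18.5 FPKM in the combination, 14.3 and 14.9 FPKM in LPS cells, 2.16 and 3.92 FPKM in anti-CD36 cells, and 3.86 and 3.11 FPKM in untreated cells. All 4 libraries with LPS lay above all 4 without it. Its LPS effect was 1.81 ± 0.20 (limma adjusted p = 3.0e-04), the largest rise among the members. Rab31, which carries cargo between the trans-Golgi and endosomes, had 42.2 and 41.1 FPKM in the combination, 48.8 and 54.7 FPKM in LPS cells, 51.7 and 61.0 FPKM in anti-CD36 cells, and 81.4 and 76.1 FPKM in untreated cells. Untreated cells stood above every treated library. Its difference with LPS was -0.60 ± 0.13 (limma adjusted p = 0.00564).

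The Rab5 proteins, which drive early endosome fusion, are encoded by 3 members of very unequal level. Rab5c had 137.2 and 137.7 FPKM in the combination, 129.4 and 125.6 FPKM in LPS cells, 133.9 and 145.9 FPKM in anti-CD36 cells, and 143.2 and 143.5 FPKM in untreated cells. Rab5b had 16.9 and 17.97 FPKM in the combination, 19.9 and 20.3 FPKM in LPS cells, 15.9 and 14.3 FPKM in anti-CD36 cells, and 22.0 and 21.2 FPKM in untreated cells. Rab5a had 9.93 and 13.0 FPKM in the combination, 14.2 and 15.4 FPKM in LPS cells, 8.78 and 9.19 FPKM in anti-CD36 cells, and 10.9 and 11.9 FPKM in untreated cells. LPS cells were above untreated cells for Rab5a and below for the others, but none of the 3 was called in the main fit. Their LPS differences were -0.17 ± 0.12 for Rab5c (0.07 with size factors), -0.10 ± 0.10 for Rab5b (0.13 with size factors) and 0.35 ± 0.14 for Rab5a (limma adjusted p = 0.251, 0.435 and 0.0653). Rab5a was called higher with size factors, at 0.57, and with quantile normalization, at 0.55 (limma adjusted p = 0.00865 and 0.0107). Rab5c was called lower with quantile normalization, at -0.38 (limma adjusted p = 0.0334). Rab21, known for integrin uptake, and Rab22a, of early and recycling endosomes, were not called either, at 0.00 ± 0.10 and -0.26 ± 0.10. Rab21 ranged from 14.2 to 18.5 FPKM over the 8 libraries.

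All 6 recycling endosome members were called, 5 lower and 1 higher, where 54.6% of all genes were called, 17.0% higher and 37.5% lower. The calls of Rab11a, Rab4a and Rab14 were lost in some alternatives, and Rab15 passed the filter only through its untreated libraries. The count is therefore a description. Rab11a, the main Rab of the recycling endosome, had 31.3 and 32.2 FPKM in the combination, 24.8 and 25.5 FPKM in LPS cells, 13.4 and 22.2 FPKM in anti-CD36 cells, and 17.98 and 14.5 FPKM in untreated cells. The libraries with LPS were above all those without it, although anti-CD36 replicate 2 came close. The rise was 0.61 ± 0.21 with an adjusted p by limma of 0.0448, the call nearest to the threshold, and it was lost in 8 of 20 alternatives. Rab11b, its close relative, had 6.32 and 4.86 FPKM in the combination, 5.37 and 6.10 FPKM in LPS cells, 14.1 and 11.5 FPKM in anti-CD36 cells, and 12.3 and 11.9 FPKM in untreated cells. Here the libraries with LPS were below all others, and the fall was -0.96 ± 0.15 (limma adjusted p = 0.00132).

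Rab35, a Rab of fast recycling at the plasma membrane, had 16.04 and 16.8 FPKM in the combination, 12.9 and 14.8 FPKM in LPS cells, 30.7 and 28.9 FPKM in anti-CD36 cells, and 32.8 and 31.1 FPKM in untreated cells. Rab4a, which works in rapid recycling from early endosomes, had 2.37 and 1.78 FPKM in the combination, 1.43 and 2.02 FPKM in LPS cells, 4.72 and 3.11 FPKM in anti-CD36 cells, and 4.08 and 3.19 FPKM in untreated cells. For both, every library with LPS was below every library without it. Rab35 fell by 1.16 ± 0.11 and Rab4a by 0.77 ± 0.20 (limma adjusted p = 1.5e-04 and 0.0133). The Rab4a call was lost with quantile normalization, at an adjusted p by limma of 0.0539, and without LPS replicate 1 or untreated replicate 1. Rab15, best known from neuronal recycling endosomes, had 0.280 and 0.142 FPKM in the combination, 0.593 and 0.624 FPKM in LPS cells, 0.995 and 0.857 FPKM in anti-CD36 cells, and 1.55 and 1.83 FPKM in untreated cells. The 4 groups stood in that order with no overlap, at about 35 to 606 reads a library. Rab15 passed the filter only through its untreated libraries, where it is high, so its LPS difference of -0.74 ± 0.10 is a description and its place in the counts supports nothing. Rab14, of endosome to Golgi and recycling traffic, fell by 0.38 ± 0.12 (limma adjusted p = 0.0344), and was not called under either other scaling.

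In the late endosome and lysosome group, 3 of 7 fell and 0 rose. Rab7b, which in mouse macrophages is known to favour the lysosomal breakdown of TLR4, had 5.29 and 5.13 FPKM in the combination, 4.75 and 5.87 FPKM in LPS cells, 12.8 and 12.1 FPKM in anti-CD36 cells, and 16.1 and 17.0 FPKM in untreated cells. Its mean in LPS cells was 0.322 times that in untreated cells, the lowest ratio among the 38 tested members. The difference was -1.48 ± 0.12 (limma adjusted p = 6.3e-05). Rab32, which with Rab38 builds lysosome-related organelles, had 3.18 and 3.53 FPKM in the combination, 3.63 and 2.94 FPKM in LPS cells, 6.69 and 6.82 FPKM in anti-CD36 cells, and 7.34 and 8.496 FPKM in untreated cells. Rab12, linked to lysosomal delivery of membrane receptors, had 7.52 and 7.27 FPKM in the combination, 7.28 and 8.86 FPKM in LPS cells, 14.2 and 11.8 FPKM in anti-CD36 cells, and 15.95 and 16.02 FPKM in untreated cells. In both the libraries with LPS lay below those without. Rab32 fell by 1.06 ± 0.12 and Rab12 by 0.91 ± 0.13 (limma adjusted p = 3.4e-04 and 8.9e-04).

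Rab7, which drives fusion of late endosomes and phagosomes with lysosomes, had 79.4 and 93.1 FPKM in the combination, 76.7 and 75.5 FPKM in LPS cells, 145.5 and 95.8 FPKM in anti-CD36 cells, and 99.8 and 110.1 FPKM in untreated cells. Its LPS libraries were below the untreated ones, and the difference of -0.46 ± 0.20 was not called (limma adjusted p = 0.0872). Rab9, which returns receptors from late endosomes to the Golgi, Rab24, tied to autophagy, and Rab29, of the Golgi and lysosome, were not called, at 0.14 ± 0.16, 0.35 ± 0.34 and -0.18 ± 0.13. Over the 8 libraries Rab9 ranged from 12.9 to 21.7 FPKM and Rab29 from 7.74 to 11.4 FPKM. Rab24 had the largest replicate gap of the tested members on the log2(FPKM + 1) scale, at 2.14 and 6.18 FPKM in anti-CD36 cells.

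Of the exocytosis and secretory granule members, 4 of 7 fell and 1 rose. Rab27a, which tethers secretory granules and lysosome-related organelles at the plasma membrane, had 4.17 and 4.54 FPKM in the combination, 2.93 and 3.19 FPKM in LPS cells, 5.27 and 5.18 FPKM in anti-CD36 cells, and 6.76 and 6.58 FPKM in untreated cells. Its groups did not overlap, with LPS cells lowest and untreated cells highest. The LPS difference was -0.92 ± 0.10 (limma adjusted p = 2.4e-04). Rab3d, a Rab of regulated secretion, had 3.96 and 3.51 FPKM in the combination, 3.44 and 3.63 FPKM in LPS cells, 5.44 and 6.94 FPKM in anti-CD36 cells, and 8.49 and 8.48 FPKM in untreated cells. Rab3a, best known from synaptic vesicles, had 2.20 and 2.13 FPKM in the combination, 2.07 and 2.28 FPKM in LPS cells, 5.84 and 4.54 FPKM in anti-CD36 cells, and 4.81 and 5.26 FPKM in untreated cells. Both were low in every library with LPS, with no overlap. Rab3d fell by 1.07 ± 0.13 and Rab3a by 0.93 ± 0.12 (limma adjusted p = 3.8e-04 and 6.8e-04).

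Rab8a and Rab8b, which direct vesicles to the cell surface and, in macrophages, act at macropinosomes, moved in opposite directions. Rab8b had 25.5 and 31.3 FPKM in the combination, 40.7 and 40.6 FPKM in LPS cells, 20.3 and 23.0 FPKM in anti-CD36 cells, and 23.8 and 28.8 FPKM in untreated cells. Rab8a had 21.3 and 20.8 FPKM in the combination, 17.8 and 15.95 FPKM in LPS cells, 36.8 and 29.7 FPKM in anti-CD36 cells, and 27.1 and 30.2 FPKM in untreated cells. With LPS alone Rab8b was highest and Rab8a lowest of the 4 groups. The LPS difference was 0.61 ± 0.15 for Rab8b and -0.73 ± 0.13 for Rab8a (limma adjusted p = 0.0092 and 0.00285). Rab10, which in mouse macrophages helps bring TLR4 to the surface, and Rab13, of cell junctions, were not called, at 0.13 ± 0.14 and -0.02 ± 0.09. Rab10 ranged from 33.8 to 49.7 FPKM and Rab13 from 1.52 to 1.86 FPKM.

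At the ER and Golgi, 2 of 8 tested members rose and 2 fell. Rab18, of the ER and lipid droplets, had 13.4 and 14.95 FPKM in the combination, 15.3 and 16.7 FPKM in LPS cells, 7.96 and 13.6 FPKM in anti-CD36 cells, and 10.0 and 9.95 FPKM in untreated cells. Rab2a, which works between ER and Golgi, had 66.3 and 72.1 FPKM in the combination, 65.6 and 64.7 FPKM in LPS cells, 66.8 and 64.7 FPKM in anti-CD36 cells, and 51.0 and 50.7 FPKM in untreated cells. Untreated cells were lowest for Rab2a, while for Rab18 anti-CD36 replicate 1 lay below them. The LPS differences were 0.63 ± 0.21 for Rab18 and 0.35 ± 0.11 for Rab2a (limma adjusted p = 0.0362 and 0.0251).

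Rab1b, which with Rab1a opens transport from ER to Golgi, had 77.7 and 69.3 FPKM in the combination, 63.1 and 62.1 FPKM in LPS cells, 86.0 and 112.1 FPKM in anti-CD36 cells, and 101.3 and 88.1 FPKM in untreated cells. Rab1a had 58.2 and 68.1 FPKM in the combination, 66.9 and 65.3 FPKM in LPS cells, 58.4 and 55.7 FPKM in anti-CD36 cells, and 54.6 and 59.2 FPKM in untreated cells. The LPS cells were below untreated cells for Rab1b and above them for Rab1a. Rab1b fell by 0.59 ± 0.16 (limma adjusted p = 0.0155), a call lost with size factors. The Rab1a difference of 0.21 ± 0.12 was not called (limma adjusted p = 0.170). Rab19, a little-studied Golgi Rab, had 2.14 and 1.90 FPKM in the combination, 1.11 and 1.34 FPKM in LPS cells, 2.82 and 4.36 FPKM in anti-CD36 cells, and 3.18 and 2.92 FPKM in untreated cells. LPS cells were lowest, and the difference was -0.87 ± 0.16 (limma adjusted p = 0.00319). The Golgi members Rab6a, Rab33b and Rab34 were not called, at -0.18 ± 0.22, -0.14 ± 0.15 and -0.24 ± 0.20. Their ranges over the 8 libraries were 16.3 to 32.1 FPKM, 2.56 to 4.02 FPKM and 20.7 to 28.8 FPKM.

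Among the remaining 3 members, 1 was called, lower. Rab23, an inhibitor of Hedgehog signalling linked to the cilium, had 0.829 and 0.684 FPKM in the combination, 0.594 and 0.729 FPKM in LPS cells, 1.36 and 1.39 FPKM in anti-CD36 cells, and 1.46 and 1.46 FPKM in untreated cells. It passed the filter only through the libraries without LPS, so its LPS difference of -0.57 ± 0.09 is a description too. Rab28, a ciliary Rab, had 16.03 and 16.3 FPKM in the combination, 16.6 and 17.0 FPKM in LPS cells, 9.72 and 14.0 FPKM in anti-CD36 cells, and 14.2 and 11.4 FPKM in untreated cells. Rab40c, part of a Cullin-5 ubiquitin ligase, had 10.2 and 8.96 FPKM in the combination, 7.90 and 9.98 FPKM in LPS cells, 4.22 and 7.74 FPKM in anti-CD36 cells, and 8.04 and 7.49 FPKM in untreated cells. Rab28 was above untreated in both LPS libraries while Rab40c overlapped, and neither was called, at 0.37 ± 0.17 and 0.17 ± 0.23.

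**Figure D2:**
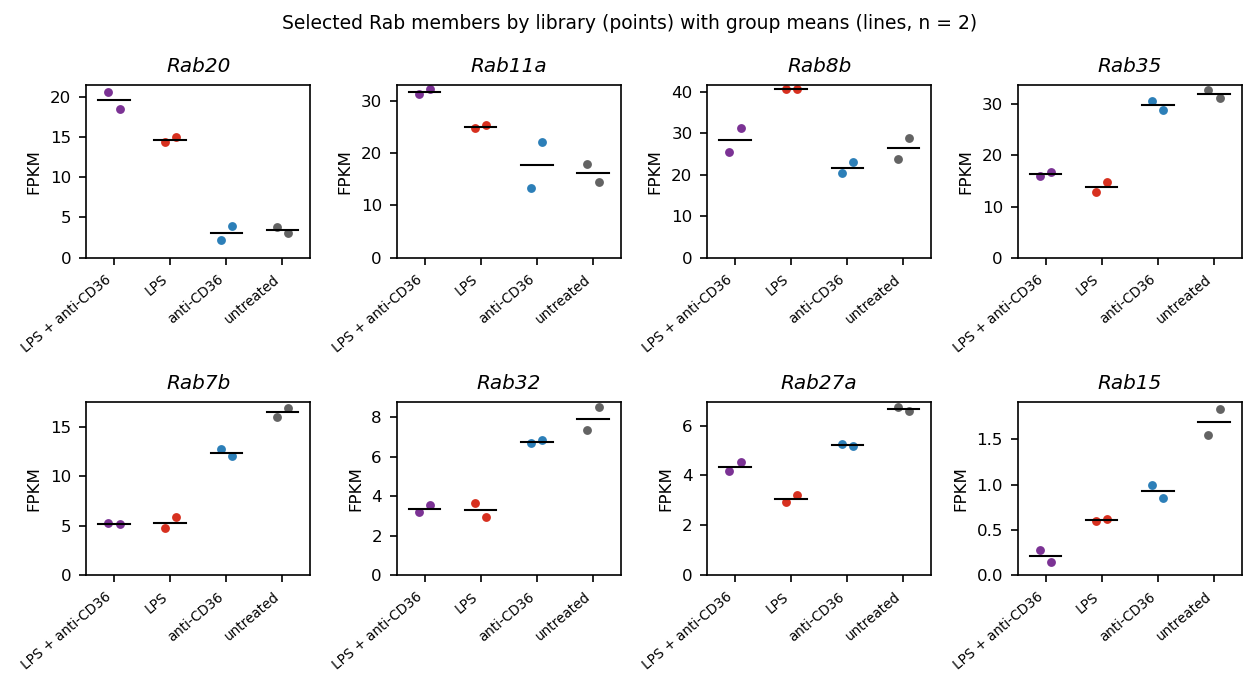
FPKM of 8 Rab genes in each library (points) with the group mean (line, n = 2), groups from left to right being combination, LPS, anti-CD36 and untreated, each axis starting at 0. Rab20 and Rab11a are high in the libraries with LPS, Rab35, Rab7b, Rab32, Rab27a and Rab15 are lower there than in untreated cells, and Rab8b is highest with LPS alone at 40.7 and 40.6 FPKM.

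Members that share a number are close relatives, and the balance within 4 such pairs differed between libraries with and without LPS. The log2 ratio of Rab11a to Rab11b was 2.33 ± 0.29 in the 4 libraries with LPS and 0.43 ± 0.43 in the 4 without it (SD). That of Rab8a to Rab8b was -0.85 ± 0.51 with LPS and 0.37 ± 0.35 without. Each SD spans 2 groups of 2 libraries. With LPS the Rab8a to Rab8b ratio was -0.26 and -0.59 in the combination and -1.19 and -1.35 in LPS cells, with no overlap. The log2 ratio of Rab7 to Rab7b was 3.95 ± 0.21 with LPS and 2.96 ± 0.40 without. In these 3 pairs, and in Rab1a to Rab1b at -0.07 ± 0.24 with LPS and -0.76 ± 0.23 without, the libraries did not overlap. The ratios of Rab3a to Rab3d, and of the 3 Rab5 members to each other, overlapped. An exact two-sided permutation test of libraries with against without LPS gave the 4 pairs without overlap p = 0.0286, the smallest it can give for 4 against 4. Adjusted over the 8 pairs, p of this permutation test was 0.0571, and 4 pairs at the smallest p cannot pass. The test therefore decides nothing, and the ratios are a description.

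Anti-CD36 alone against untreated cells gave 0 rises and 4 falls among the 38, where 13.7% of all genes were called, 3.04% higher and 10.6% lower. The count is near that share. Both anti-CD36 libraries lay above both untreated ones for 2 members and below for 15, where 16.7% of all genes lay above and 35.9% below. The early endosome members Rab22a, Rab5b and Rab31 and the recycling member Rab15 were the 4 called. Rab22a had 5.45 and 5.88 FPKM in anti-CD36 cells, against 8.24 and 8.604 FPKM in untreated cells. With LPS it had 5.76 and 6.41 FPKM in the combination, against 6.72 and 7.06 FPKM in LPS cells. Anti-CD36 cells were lower than untreated cells in both libraries for each of the 4. The differences were -0.50 ± 0.10 for Rab22a, -0.49 ± 0.10 for Rab5b, -0.48 ± 0.13 for Rab31 and -0.48 ± 0.10 for Rab15 (limma adjusted p = 0.0248, 0.0263, 0.0472 and 0.0274). For Rab15 the limit of the filter given above holds here too. The median over the members was -0.12, beside -0.08 for all genes.

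With mitochondrial genes left out of the scaling the differences were -0.43 for Rab22a, -0.41 for Rab5b, -0.39 for Rab31 and -0.45 for Rab15, and 0 members were called (limma adjusted p = 0.0528, 0.0827, 0.0726 and 0.0559). On the median-ratio scale Rab22a alone was still called lower, while Rab2a was called higher at 0.47 (limma adjusted p = 0.047). Without anti-CD36 replicate 1 there were 5 rises and 7 falls, and without replicate 2 there were 3 rises and 9 falls, in fits that called 36.3% and 27.4% of all genes. Rab22a, Rab5b, Rab31 and Rab15 were lower, and Rab2a higher, in both of these fits. Differences also followed transcript length: Spearman's rho of the difference with exon length was -0.519 over the 38 members and -0.445 over 10034 genes, which are not independent replicates. With that trend removed Rab5b and Rab31 were still called lower, and Rab22a was not. Rab15 was called lower too, but it passed the filter only through its untreated libraries, so its results here support nothing. The part of length in the result was not tested further.

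The combination against LPS alone gave 0 calls among the 38 members, where 1.78% of all genes were called, 0.360% higher and 1.42% lower. At an unadjusted p under 0.05 there were 6 members, and voom on approximate reads also called 0 with 6 at that level. Both combination libraries lay above both LPS libraries for 12 members and below for 11, where 28.5% of all genes lay above and 35.6% below. The 6 were Rab8b at -0.51 ± 0.15, Rab19 at 0.44 ± 0.16, Rab15 at -0.41 ± 0.10, Rab27a at 0.40 ± 0.10, Rab5a at -0.35 ± 0.14 and Rab31 at -0.30 ± 0.13. Their adjusted p by limma was 0.118, 0.197, 0.0926, 0.0872, 0.225 and 0.244. Rab20 had a difference of 0.39 ± 0.20 (limma adjusted p = 0.347). Leaving out either anti-CD36 library, which is not in this contrast but enters the shared spread, gave 5 calls: Rab19, Rab27a and Rab20 higher, Rab8b and Rab15 lower. Those fits called 13.9% of all genes. A fit on only the groups compared gave 8 calls among the members and called 22.4% of all genes. Over the 38 members the difference had a Spearman's rho of -0.545 with exon length, and over all genes -0.476.

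**Figure D3:**
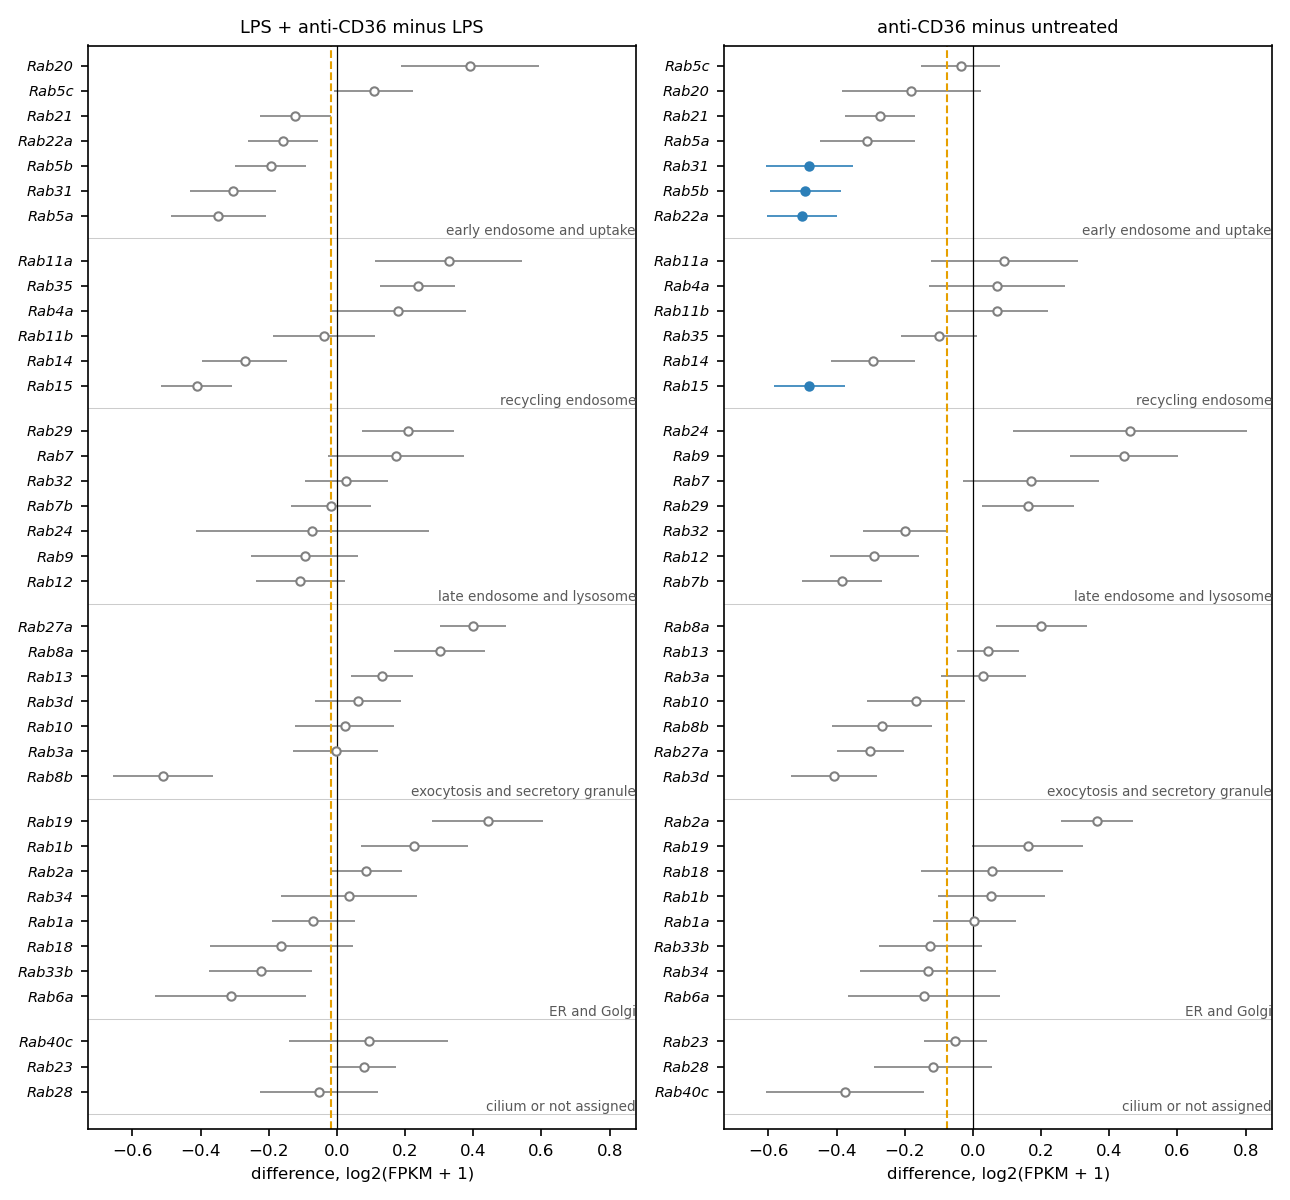
Log2 difference of the 38 tested Rab members for the combination minus LPS (left) and for anti-CD36 minus untreated (right), with SE as bars, 2 libraries per group. Filled blue points were called lower and open points were not called, and the dashed lines are the medians of all genes. No point is filled at left, and 4 are filled at right.

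Against untreated cells, which also serve the LPS comparison, the combination had 3 members higher and 16 lower, where 59.1% of all genes were called, 17.3% higher and 41.8% lower. With size factors the split was 9 higher and 12 lower, where all genes had 2948 higher and 2937 lower. Both its libraries lay above both untreated ones for 8 members and below for 23, where 29.2% of all genes lay above and 55.0% below. Rab20 was 2.20 ± 0.20 higher, Rab11a 0.94 ± 0.21 and Rab2a 0.44 ± 0.11 (limma adjusted p = 1.1e-04, 0.00728 and 0.00943). Rab7b was at -1.50 ± 0.12 (limma adjusted p = 5.0e-05). Rab15 was at -1.15 ± 0.10, and at -2.56 with a pseudocount of 0.1, where Rab7b was at -1.64. Rab22a and Rab5b were called lower here at -0.41 ± 0.10 and -0.30 ± 0.10, but with size factors they were at -0.15 and -0.01 and not called. In all, the Rab22a call was lost in 5 and the Rab5b call in 10 of 20 alternatives. Rab8b had 0.10 ± 0.15 and was not called. Against anti-CD36 alone the combination had 2 members higher, Rab20 at 2.38 ± 0.20 and Rab11a at 0.84 ± 0.21, and 14 lower, where 47.1% of all genes were called, 15.4% higher and 31.7% lower. With size factors it was 10 higher and 11 lower, where all genes had 2371 higher and 2344 lower. Both its libraries lay above both anti-CD36 ones for 9 members and below for 18, where 24.9% of all genes lay above and 45.5% below. The interaction (LPS effect in the presence of the antibodies, less that in their absence) gave 0 calls by limma, where 0.00972% of all genes were called. At an unadjusted p under 0.05 there were 4 members, and voom gave 0 calls and 4 at that level. Rab27a had the largest interaction at 0.70 ± 0.14 (limma adjusted p = 0.209). Anti-CD36 replicates 1 and 2 were also left out in turn, which leaves 1 library in that group. The interaction of Rab27a was then 0.71 and 0.69, that of Rab24 -1.13 and 0.06, and that of Rab20 0.25 and 0.89.

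The regulators of Rabs were taken from 4 lists chosen with earlier results of these data known. Over all genes tested 17.0% were higher and 37.5% lower with LPS. The GAPs had 2 of 34 tested genes higher and 18 lower, with a median of -0.44 beside -0.19 for all genes. The GEFs had 4 of 47 higher and 18 lower, with a median of -0.29. Escort, GDI and prenylation genes had 3 of 11 higher and 2 lower, with a median of -0.02. Effectors and tethers had 10 of 55 higher and 18 lower, with a median of -0.13. With size factors the counts were 3 higher and 13 lower for GAPs, 7 and 14 for GEFs, 3 and 1 for the escort list, and 16 higher and 12 lower for effectors. All genes then had 2655 higher and 2726 lower, in place of 1754 and 3860, so the effectors' balance moved with that of all genes.

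Tbc1d4, a GAP of Rab8, Rab10 and Rab14, had 0.454 and 0.572 FPKM in the combination, 0.685 and 0.943 FPKM in LPS cells, 2.71 and 2.42 FPKM in anti-CD36 cells, and 4.29 and 5.36 FPKM in untreated cells. Every library with LPS was below the others. Tbc1d4 passed the filter only through the libraries without LPS, where it is high, so its LPS difference of -1.68 ± 0.13 is a description. The related Tbc1d16 and Tbc1d14 fell by 1.46 ± 0.12 and 1.40 ± 0.10 (limma adjusted p = 6.9e-05 and 3.3e-05). Among the GEFs, Rin2, which activates Rab5, and Sbf1, a DENN domain protein, fell by 1.35 ± 0.11 and 0.92 ± 0.12. Rabgef1, another activator of Rab5, had 12.7 and 14.1 FPKM in the combination, 13.7 and 15.1 FPKM in LPS cells, 5.20 and 5.41 FPKM in anti-CD36 cells, and 5.86 and 6.13 FPKM in untreated cells. It rose by 1.14 ± 0.11 (limma adjusted p = 1.3e-04), so the 2 Rab5 GEFs named here moved in opposite directions.

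Micall2, an effector of Rab8 and Rab13, had 53.8 and 49.4 FPKM in the combination, 41.1 and 45.0 FPKM in LPS cells, 4.83 and 2.86 FPKM in anti-CD36 cells, and 4.97 and 5.35 FPKM in untreated cells. Eea1, the tether that Rab5 recruits to early endosomes, had 13.9 and 16.3 FPKM in the combination, 18.2 and 21.2 FPKM in LPS cells, 5.75 and 5.49 FPKM in anti-CD36 cells, and 3.12 and 4.74 FPKM in untreated cells. Libraries with LPS were above all others for both, by 2.84 ± 0.19 for Micall2 and 2.08 ± 0.17 for Eea1 between LPS and untreated cells (limma adjusted p = 2.8e-05 and 8.2e-05). Rufy1, an effector of Rab4 and Rab14, fell by 1.32 ± 0.17 (limma adjusted p = 5.1e-04). Rabggtb, a subunit of the enzyme that prenylates Rabs, rose by 1.15 ± 0.21, while the escort protein gene Chml fell by 0.66 ± 0.15 (limma adjusted p = 0.00317 and 0.00784).

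With anti-CD36 against untreated cells, 0 of 11 escort genes were higher and 1 lower, 0 of 47 GEFs higher and 15 lower, 0 of 34 GAPs higher and 8 lower, and 3 of 55 effectors higher and 9 lower, where 3.04% of all genes were higher and 10.6% lower. With size factors those became 0 and 0, 1 and 7, 0 and 6, and 4 and 6, where 429 of 10289 genes were higher and 584 lower. The combination against LPS gave 1 call over the 4 lists of 11, 47, 34 and 55 tested genes, where 1.78% of all genes were called. The call was Appl2, an early endosome adaptor that binds Rab5. Appl2 had 3.43 and 2.84 FPKM in the combination, 6.81 and 8.13 FPKM in LPS cells, 17.7 and 15.4 FPKM in anti-CD36 cells, and 18.1 and 20.4 FPKM in untreated cells. The combination was lowest with no overlap, and the difference to LPS was -1.03 ± 0.14 (limma adjusted p = 0.0214).

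**Figure D4:**
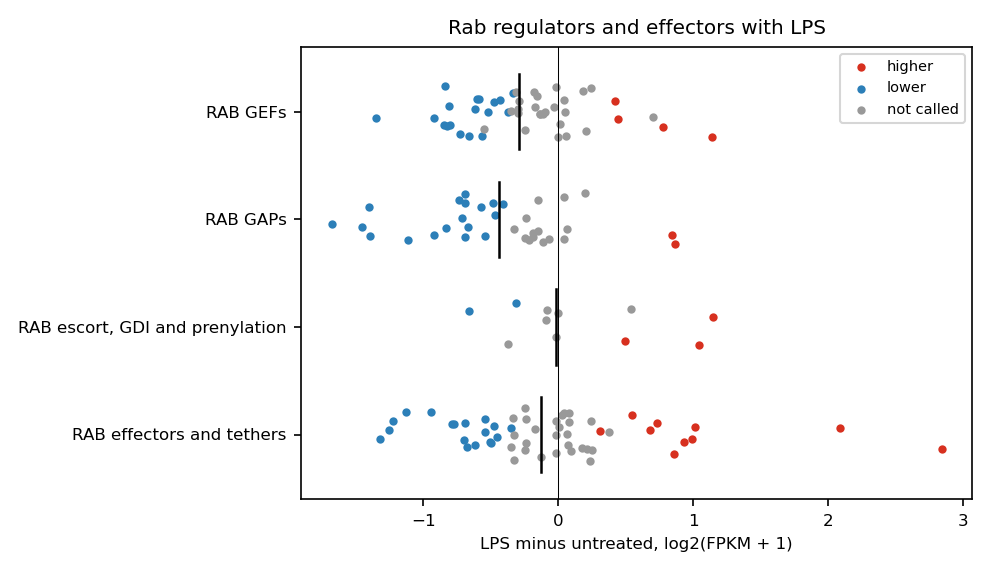
Log2 difference, LPS minus untreated, of the tested genes in the 4 regulator lists, 1 point per gene, with the list median as a black line and points spread vertically only to be seen. Red points were called higher, blue lower and grey not called. Micall2 at 2.84 and Eea1 at 2.08 lie far right among the effectors, and the GAP median is -0.44.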

How the data were processed

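Per the labels' protocols, total RNA was extracted from RAW264.7 cells with Trizol and sequenced from Illumina libraries. A label names 10x Genomics, yet each gene has a single value in each library, so the data were treated as bulk. The authors deposited 1 table of FPKM values. HISAT2 2.0.5, mm10 and hg38 come from the submitters' processing notes; the counter, annotation and strand use are not given in the sources used here. None of the 10639 genes was at 0 in any library. Depth was recovered from FPKM steps of single reads in 171 to 205 single-exon genes a library, 96.6% to 99.4% of them whole within 0.05. Coordinates and exon lengths came from GENCODE M21 (10366 symbols matched) and promoters from RefSeq.

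Samples were grouped by label alone. limma 3.58.1 in R 4.3.3 (empirical Bayes with a trend) was run on log2(FPKM + 1), with 4 residual and 3.46 prior degrees of freedom, and tested on simulated data. The members, compartments and regulator lists were chosen with earlier results of these data known. Named members are the 3 largest LPS differences per compartment, those called for the antibodies, the 5 most abundant and 6 landmarks; values of others were chosen after they were seen. Of each regulator list, up to 3 called genes with the largest LPS difference and up to 2 for the combination against LPS are named, except 1 that is not reported here. Alternatives changed the pseudocount, filter, scaling, mitochondrial genes, length trend, variance trend, replicate block, size threshold, groups fitted and libraries. Voom on approximate reads was added after seeing the data.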

Additional observations from a re-analysis of the deposited data

Results flagged for a closer look

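In 3 members the libraries moved to opposite sides under the same contrast. The antibody difference of Rab27a was 0.40 with LPS and -0.30 without it, with both libraries of each group on that side, and the interaction was not called (limma adjusted p = 0.209). For Rab35 the antibody difference was 0.24 with LPS and -0.10 without it (limma interaction adjusted p = 0.392). The LPS difference of Rab5b was 0.20 with the antibodies and -0.10 without them (limma interaction adjusted p = 0.42). The interaction, which tests these differences, was thus past the threshold in none of the 3.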

How the results depend on the processing

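With 2 libraries a group, counts of calls depend on the spread that the fit shares between groups. Requiring a log2 difference of at least 1 left 5 of 21 Rab members with LPS, 0 of 4 with anti-CD36, 6 of 19 for the combination against untreated cells and 3 of 16 against anti-CD36. Of all genes tested, 16.6%, 0.593%, 19.2% and 13.5% were called at this threshold in the same order. The anti-CD36 count of 4 became 2 with a pseudocount of 0.1, 2 with a mean FPKM of at least 5, 2 with size factors, 0 without mitochondrial genes and 0 when only the groups compared were fitted, which gave 8 in place of 0 for the combination against LPS. Leaving out each library gave 13 to 25 calls with LPS (13 without LPS replicate 1), 0 to 12 with anti-CD36, 13 to 26 for the combination against untreated cells, 0 to 5 against LPS, 10 to 21 against anti-CD36 (10 without combination replicate 2) and 0 to 2 for the interaction, with a lone library assumed to vary like the other groups. The cause of these moves was not tested.

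A replicate block gave 1 call with anti-CD36, against 4 without it, and 21, 18, 0, 15 and 0 calls for LPS, for the combination against untreated cells, LPS and anti-CD36, and for the interaction. Of all genes tested it called 8.39% with anti-CD36, and 51.5%, 56.4%, 0.447%, 43.2% and 0.00972% for the others in that order. Replicate differences over all genes correlated between groups at -0.64 to 0.524. The labels give no batch, so whether samples of the same number share more than that number cannot be told. Of the called members, 13 of 21 with LPS, 0 of 4 with anti-CD36, 12 of 19 and 9 of 16 for the combination against untreated and anti-CD36 cells stayed called in the same direction under each alternative that tested them, the size threshold aside, and 0 reversed. Among those 13, Rab15, Rab19, Rab23, Rab27a and Rab3a were not tested at a mean FPKM of at least 5. Rab15 and Rab23 passed the filter only through libraries without LPS, so their place among the 13, and among the 12 against untreated cells, supports nothing. The same holds for Rab15 among the 9 against anti-CD36 cells.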
